A study of Homo sapiens with 12 samples.

Results

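The DNA replication machinery is described here as 52 genes, chosen by name from the 23686 genes of the expression table and grouped by role. The roles were the replicative helicase (12 genes), origin recognition and firing (11), the replicative polymerases (10), the sliding clamp with its loader and the single-strand binding and ligation factors (11), fork protection and chromatin assembly (5), and nucleotide supply (3). All 52 had a row in the table, all 52 passed the filter on low values, and no library listed any of them at 0. The values are TPM, a measure of transcript abundance that corrects for gene length and library total, so levels can be set side by side between genes.

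Cultures of MDA-MB-231, a breast cancer line, and of HCT116, a colon cancer line, were each sampled under 3 treatments with 2 libraries each, 12 libraries in all. The treatments were control antibody (IgG), IgG with 100 µM hydrogen peroxide for 8 h (IgG+H2O2), and an antibody named anti-Hsp60N with the same H2O2 (anti-Hsp60N+H2O2). Hence every group carries an antibody, no group was left wholly untreated, and none received anti-Hsp60N without H2O2. Growth medium differed between the lines, so line and medium cannot be told apart. The sources do not say whether replicates were separate cultures, and the p-values measure the spread between these libraries, which may be technical.

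Replication starts where the origin recognition complex (ORC), CDC6 and CDT1 load the MCM2 to MCM7 ring onto DNA during G1. The kinases CDC7, activated by DBF4, and CDK2 then bring in CDC45 and the GINS complex, which turn the ring into the active helicase. Polymerase alpha with primase lays down primers, polymerases epsilon and delta extend them on the PCNA clamp, and FEN1 and LIG1 finish the lagging strand. Many of these genes are transcribed in late G1 and S phase under the control of E2F factors, so their mRNA is a common marker of proliferating cells. In these bulk libraries, a smaller share of cells in S phase and less RNA per cell cannot be told apart.

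The libraries were alike in overall quality. Between 12411 and 12653 genes reached 1 TPM, and the 2 libraries of a group correlated at 0.994 to 0.996 across genes. Sequencing depth cannot be read from TPM, so no counting error could be given. Epithelial markers summed to 5985 to 6339 TPM in HCT116 and 1742 to 1970 TPM in MDA-MB-231. Of these 9 markers, 8 had a mean of at least 1 TPM in each HCT116 group and 4 in each MDA-MB-231 group. Mesenchymal markers summed to 217 to 263 TPM in HCT116 and 3282 to 3637 TPM in MDA-MB-231. The number with a mean of at least 1 TPM differed little, at 4 of 6 in each HCT116 group and 5 of 6 in each MDA-MB-231 group. Lists of 4 immune, 4 fibroblast and 3 endothelial markers each summed to at most 8.09 TPM in any library. CDX2, an intestinal marker, was listed at 0 in every MDA-MB-231 library.

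With H2O2 the replication genes stood higher in MDA-MB-231 and lower in HCT116. The 52 genes summed to 3233 and 3310 TPM in the IgG libraries of MDA-MB-231, to 3906 and 3924 TPM with IgG+H2O2, and to 3694 and 3692 TPM with anti-Hsp60N+H2O2. In HCT116 they summed to 5831 and 5903 TPM, 5210 and 5370 TPM, and 5245 and 5372 TPM. The H2O2 mean was 120% of the IgG mean in MDA-MB-231 and 90.2% in HCT116, with no overlap of libraries in either line. HCT116 held 1.79 times the summed level of MDA-MB-231 under IgG and 1.35 times under IgG+H2O2.

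**Figure D1:**
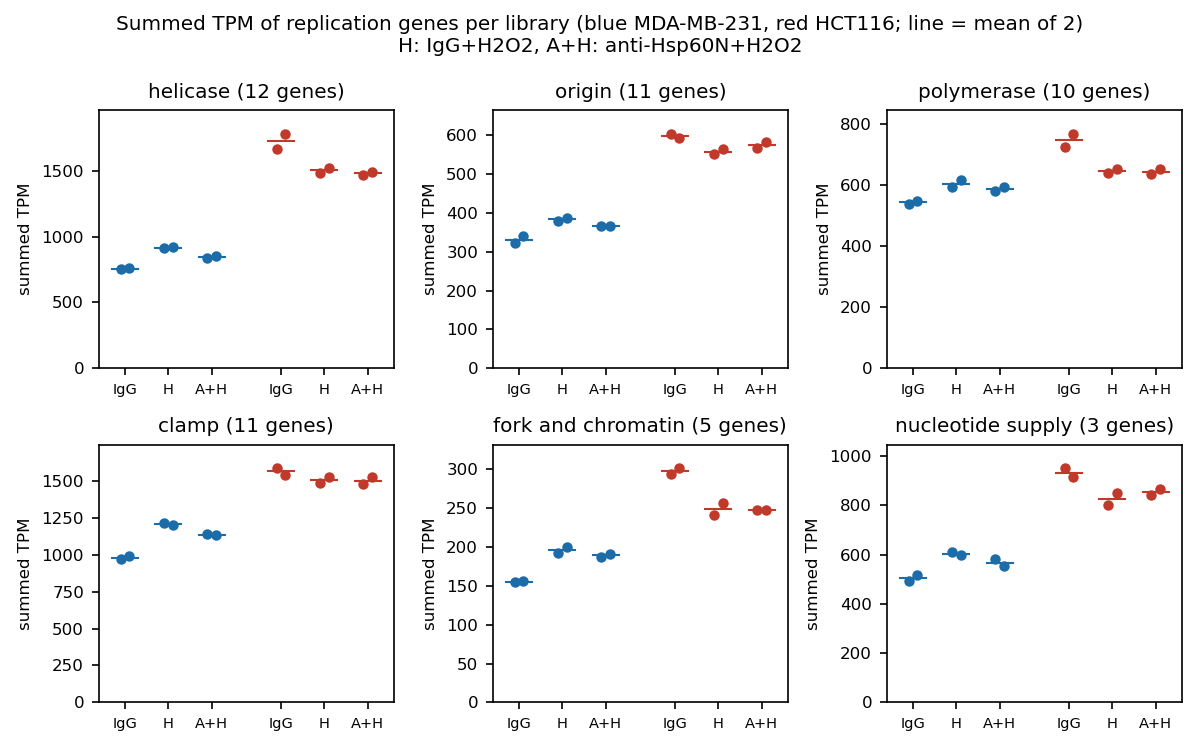
Summed TPM of the genes of each role (vertical axis from 0) in each of the 12 libraries (points) with the mean of 2 libraries (lines), by treatment on the horizontal axis, MDA-MB-231 in blue and HCT116 in red. In each of the 6 roles the IgG+H2O2 libraries lie above the IgG libraries in MDA-MB-231 and below them in HCT116.

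In MDA-MB-231, 25 of the 52 genes rose with H2O2, 1 fell and 26 did not pass the test (limma on log2(TPM + 1), Benjamini-Hochberg adjusted p under 0.05 over the 13956 genes tested). Of all genes tested 2.66% were called, 1.3% higher and 1.36% lower. The median log2 fold change of the 52 was 0.25, against 0.03 over all genes, and the range was -0.29 to 0.48. In 45 of the 52 both IgG+H2O2 libraries lay above both IgG libraries, as in 30.4% of all genes, and in 1 both lay below, as in 17.3%. Since each group had 2 libraries, the count was sensitive to each of the 4 involved: 11 genes were called without IgG replicate 1, 17 without IgG replicate 2, 11 without IgG+H2O2 replicate 1 and 9 without IgG+H2O2 replicate 2. All of these were higher, and the share called over all genes was then 1.2%, 1.33%, 0.89% and 0.832%.

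In HCT116 the same exposure gave 28 lower genes, 1 higher gene and 23 that did not pass. Here the background was broad, with 32.9% of all genes called, 15.4% higher and 17.5% lower. The median of the 52 was -0.18, against -0.01 over all genes, with a range of -0.53 to 0.19. Both IgG+H2O2 libraries lay below both IgG libraries in 38 of the 52, as in 33.6% of all genes, and above them in 5, as in 29.1%. The 29 calls became 15 without IgG+H2O2 replicate 1 and 19 without IgG replicate 2, while 22.5% and 24.6% of all genes were then called.

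Between the lines, the H2O2 change itself was lower in HCT116 for 38 of the 52 genes and higher for 0, by the interaction term of the same fit. At an unadjusted p under 0.05 the interaction counted 45 lower and 0 higher, where 32.3% of all genes reached that level in either direction. Over all genes 17.4% were called at the adjusted p, 9.72% lower and 7.65% higher. The median difference was -0.42 log2, against -0.04 over all genes. By role, 10 of 12 helicase genes, 5 of 11 origin genes, 8 of 10 polymerase genes, 7 of 11 clamp genes, 5 of 5 fork and chromatin genes and 3 of 3 nucleotide supply genes differed.

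**Figure D2:**
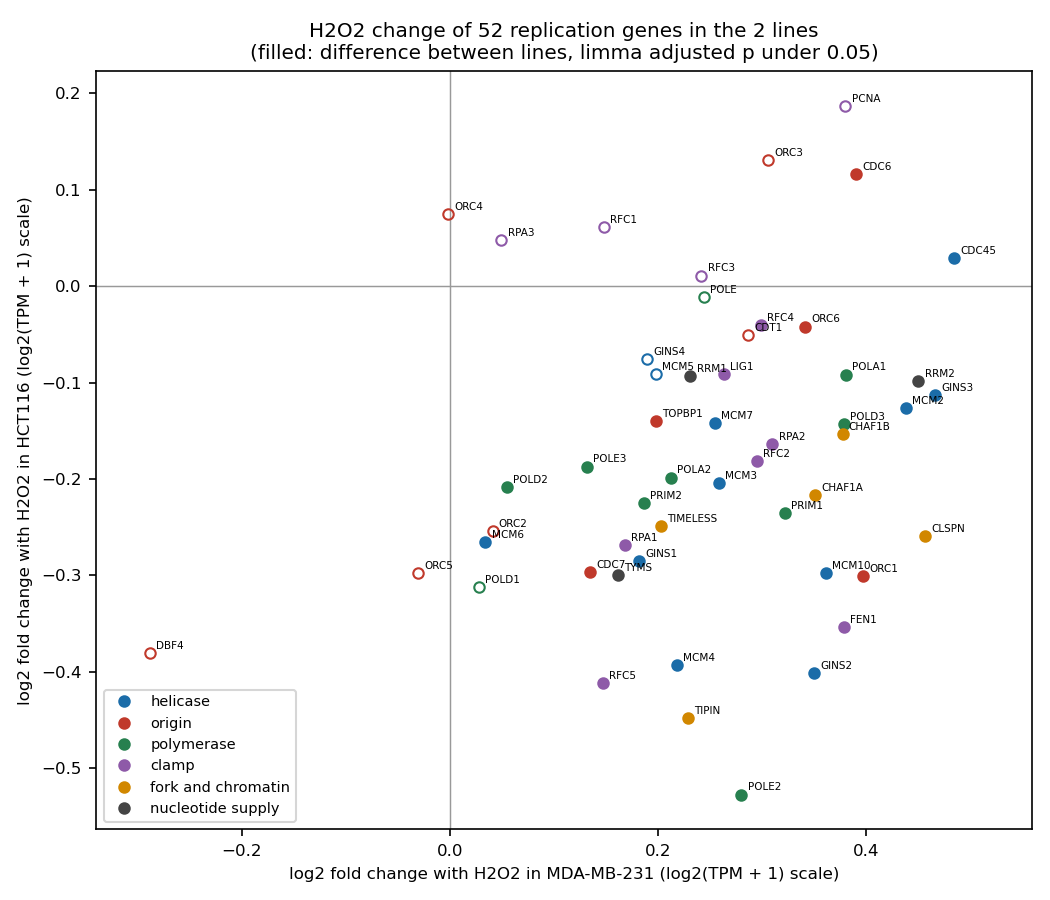
Log2 fold change with H2O2 in MDA-MB-231 (horizontal) and in HCT116 (vertical) for each of the 52 genes, coloured by role, with filled points where the difference between the lines passed at a limma adjusted p under 0.05. Most points lie at the lower right, and DBF4 is the point farthest to the left at -0.29.

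Among the helicase genes, 8 of 12 rose in MDA-MB-231, where 1.3% of all genes were called higher. In HCT116 7 of 12 fell, where 17.5% of all genes were called lower. MCM2, a subunit of the ring, stood at 49.1 and 51.6 TPM under IgG in MDA-MB-231 and at 68.8 and 68.4 TPM with H2O2 (log2 fold change 0.44, SE 0.05, limma adjusted p = 0.00148). In HCT116 its libraries stood at 185 and 204 TPM and 176 and 179 TPM, which did not pass (log2 -0.13, limma adjusted p = 0.0878). The libraries did not overlap in either line, but in HCT116 the shift of the mean was smaller than the gap between the IgG libraries.

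MCM4, another ring subunit, moved in opposite directions. Its libraries read 80.1 and 80.7 TPM and then 91.8 and 95.6 TPM in MDA-MB-231 (log2 fold change 0.22, SE 0.04, limma adjusted p = 0.0291). They read 183 and 194 TPM and then 141 and 145 TPM in HCT116 (log2 fold change -0.39, SE 0.04, limma adjusted p = 0.000129). The fall in HCT116 was the larger of the 2 changes, and the difference between lines was -0.61 log2 (limma adjusted p = 0.000185). MCM3 and MCM7 followed the same pattern, with log2 0.26 and 0.25 in MDA-MB-231 and -0.20 and -0.14 in HCT116. MCM6, also of the ring, was not called in MDA-MB-231, where it stood at 30.2 and 32.7 TPM under IgG and 31.9 and 32.5 TPM with H2O2, with overlapping libraries (log2 0.03). In HCT116 MCM6 fell from 119 and 123 TPM to 98.6 and 102 TPM (log2 -0.27, limma adjusted p = 0.00335). MCM5 did not pass in either line (log2 0.20 and -0.09).

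GINS2, of the GINS complex, stood at 40.3 and 39.4 TPM under IgG and 51.2 and 51 TPM with H2O2 in MDA-MB-231 (log2 fold change 0.35, SE 0.05, limma adjusted p = 0.00338). In HCT116 it stood at 126 and 128 TPM and 97.7 and 94.2 TPM (log2 fold change -0.40, SE 0.05, limma adjusted p = 0.000203). Neither pair of groups overlapped, and the difference between lines was -0.75 log2 (95% interval -0.90 to -0.60). GINS3 rose in MDA-MB-231 from 18.5 and 19.4 TPM to 27.3 and 25.9 TPM (log2 0.47, limma adjusted p = 0.00269) and did not pass in HCT116 (log2 -0.11). GINS1 did not pass in MDA-MB-231 (log2 0.18) and fell in HCT116 (log2 -0.28), while GINS4 passed in neither. CDC45, which joins MCM and GINS in the working helicase, had the highest fold change of the 52 in MDA-MB-231: 38.1 and 38.6 TPM under IgG and 50.8 and 57.6 TPM with H2O2 (log2 0.48, limma adjusted p = 0.00573). It stood at 46 and 47.9 TPM and 45.9 and 50.1 TPM in HCT116, where the libraries overlapped. The MDA-MB-231 call of CDC45 was not among the single-gene results checked by leaving out libraries. MCM10, which helps to start the helicase, rose in MDA-MB-231 (log2 0.36) and fell in HCT116 (log2 -0.30).

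Of the named helicase calls, several ended when 1 library was left out, although none changed direction. In MDA-MB-231 those of MCM3 (limma adjusted p up to 0.122) and MCM10 (up to 0.0945) ended without IgG replicate 1 or either IgG+H2O2 replicate. Those of MCM4 (up to 0.248) and MCM7 (up to 0.126) ended without any 1 of the 4 libraries, MCM4 also without either anti-Hsp60N+H2O2 library of HCT116 (0.0553 and 0.0552). In HCT116 the call of MCM7 ended without either IgG+H2O2 library or IgG replicate 2 (up to 0.2), and without either IgG+H2O2 library of MDA-MB-231 (0.0508 for each). That of MCM3 ended without IgG+H2O2 replicate 1 (0.051). The calls of MCM2 and GINS2 in MDA-MB-231 and of MCM4, GINS2 and MCM10 in HCT116 passed without any single library.

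Of the 11 origin genes, 4 rose and 1 fell in MDA-MB-231 and 5 fell in HCT116, against the same shares of all genes as given above. ORC1, the ATPase subunit of ORC whose protein is cell cycle regulated, stood at 20 and 22.1 TPM under IgG and 28 and 28 TPM with H2O2 in MDA-MB-231 (log2 fold change 0.40, SE 0.07, limma adjusted p = 0.0148). In HCT116 it stood at 57.5 and 63.3 TPM and 46.6 and 51.1 TPM (log2 fold change -0.30, SE 0.07, limma adjusted p = 0.00879). ORC1 was the ORC subunit called in opposite directions. ORC3 and ORC6 rose in MDA-MB-231 (log2 0.31 and 0.34) and did not pass in HCT116 (log2 0.13 and -0.04). ORC2 and ORC5 fell in HCT116 (log2 -0.25 and -0.30) and lay near 0 in MDA-MB-231 (log2 0.04 and -0.03). ORC4 passed in neither line.

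CDC6, which loads the MCM ring together with ORC, rose in MDA-MB-231 from 69.1 and 72.8 TPM to 93.6 and 92.9 TPM (log2 fold change 0.39, SE 0.05, limma adjusted p = 0.00176). In HCT116 it stood at 104 and 102 TPM and 109 and 115 TPM, higher in both H2O2 libraries but not past the test (log2 0.12, limma adjusted p = 0.0926). Its partner CDT1 did not pass in either line (log2 0.29 and -0.05). DBF4, the activator of the CDC7 kinase, was the gene of the 52 that fell in both lines. It stood at 28 and 29.7 TPM under IgG and 23.7 and 23.1 TPM with H2O2 in MDA-MB-231 (log2 -0.29, limma adjusted p = 0.0486), and at 40.1 and 35.9 TPM and 28.2 and 29.6 TPM in HCT116 (log2 -0.38, limma adjusted p = 0.00176). CDC7 itself fell in HCT116 (log2 -0.30) and did not pass in MDA-MB-231 (log2 0.13). TOPBP1, a scaffold in origin firing, did not pass in either line but differed between them by -0.34 log2 (limma adjusted p = 0.0149).

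The DBF4 call in MDA-MB-231 lay at the threshold and ended without any 1 of the 6 MDA-MB-231 libraries (limma adjusted p up to 0.281, without IgG+H2O2 replicate 2) or any 1 of the 4 HCT116 libraries with H2O2 (up to 0.0792). ORC1 lost its call in MDA-MB-231 without IgG replicate 1 or either IgG+H2O2 library (up to 0.116), and in HCT116 without IgG+H2O2 replicate 1 (0.0719) or IgG replicate 2 (0.0636). ORC6 lost its call without IgG replicate 2 (0.0685) or IgG+H2O2 replicate 2 (0.126). For CDC6 in MDA-MB-231 and for DBF4 and ORC5 in HCT116 the call held without any single library.

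Of the 10 polymerase genes, 3 rose in MDA-MB-231, where 1.3% of all genes were called higher, and 6 fell in HCT116, where 17.5% were called lower. POLE2, a subunit of polymerase epsilon, fell in HCT116 from 38.5 and 34.5 TPM to 25.3 and 24.7 TPM (log2 fold change -0.53, SE 0.08, limma adjusted p = 0.000638), the lowest fold change of the 52 there. In MDA-MB-231 POLE2 stood at 26.4 and 27.8 TPM and 30.6 and 35.8 TPM, with no overlap but not past the test (log2 0.28, limma adjusted p = 0.0907). The difference between lines was -0.81 log2 (limma adjusted p = 0.00104). The catalytic subunit POLE passed in neither line (log2 0.24 and -0.01), and the small subunit POLE3 fell in HCT116 (log2 -0.19).

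PRIM1, the catalytic primase subunit, rose in MDA-MB-231 from 27.9 and 31.5 TPM to 36.9 and 37.7 TPM (log2 0.32, limma adjusted p = 0.0311) and fell in HCT116 from 78 and 78.9 TPM to 63.7 and 69.4 TPM (log2 -0.24, limma adjusted p = 0.0205). POLA1, the catalytic subunit of polymerase alpha, rose in MDA-MB-231 from 11.4 and 11.9 TPM to 15.6 and 15.4 TPM (log2 0.38, limma adjusted p = 0.0249), with overlapping libraries in HCT116. POLD3, an accessory subunit of polymerase delta, rose in MDA-MB-231 (log2 0.38). The other delta genes, POLD1 and POLD2, fell in HCT116 (log2 -0.31 and -0.21) and stood at log2 0.03 and 0.05 in MDA-MB-231. The 3 polymerase calls in MDA-MB-231 ended without IgG replicate 1 or either IgG+H2O2 library (up to 0.207 for PRIM1, 0.159 for POLA1 and 0.161 for POLD3), and POLA1 also without IgG replicate 2 (0.0749). PRIM1 in HCT116 ended without either IgG library (0.0559 and 0.0772) or IgG+H2O2 replicate 1 (0.142), and POLE3 without IgG+H2O2 replicate 1 (0.058). POLE2 in HCT116 held throughout.

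Clamp genes rose in 6 of 11 cases in MDA-MB-231, where 1.3% of all genes were called higher. In HCT116, 5 fell and 1 rose, where 17.5% of all genes were called lower and 15.4% higher. FEN1, the nuclease that trims Okazaki fragments, had the smallest p of the 52 for the difference between lines. It stood at 173 and 170.4 TPM under IgG and 227 and 221 TPM with H2O2 in MDA-MB-231 (log2 fold change 0.38, SE 0.05, limma adjusted p = 0.00151). In HCT116 it stood at 225 and 233 TPM and 176 and 181 TPM (log2 fold change -0.35, SE 0.05, limma adjusted p = 0.0003). Thus under IgG FEN1 was higher in HCT116, and under IgG+H2O2 both MDA-MB-231 libraries were the higher ones. The difference of the changes was -0.73 log2 (95% interval -0.88 to -0.59, limma adjusted p = 7.03e-05).

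PCNA, the sliding clamp, was the gene of the 52 that rose in both lines. Its libraries read 252 and 261 TPM and then 334 and 333 TPM in MDA-MB-231 (log2 fold change 0.38, SE 0.05, limma adjusted p = 0.0025). In HCT116 they read 537 and 497 TPM and then 581 and 595 TPM (log2 fold change 0.19, SE 0.05, limma adjusted p = 0.0163). The rise in HCT116 was the smaller, and the difference between lines did not pass (-0.19 log2, 95% interval -0.35 to -0.04, limma adjusted p = 0.0882). The HCT116 call ended without IgG replicate 2 (0.105) or IgG+H2O2 replicate 2 (0.0883).

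Calls differed among the clamp loader subunits. RFC2 rose in MDA-MB-231 (log2 0.30) and fell in HCT116 (log2 -0.18), RFC4 rose in MDA-MB-231 and did not pass in HCT116 (log2 0.30 against -0.04), and RFC1 and RFC3 passed in neither. RFC5 had the smallest p of the 52 in HCT116, with 109 and 108 TPM under IgG and 82.1 and 80.2 TPM with H2O2 (log2 fold change -0.41, SE 0.04, limma adjusted p = 6.95e-05). In MDA-MB-231 RFC5 stood at 58.3 and 59.4 TPM and 65 and 65.5 TPM (log2 0.15, not passing). Of the single-strand binding trimer, RPA2 was called in opposite directions (log2 0.31 and -0.16), RPA1 fell in HCT116 (log2 -0.27) and RPA3 passed in neither line (log2 0.05 and 0.05). LIG1, which seals the nicks, rose in MDA-MB-231 (log2 0.26). RFC2 in MDA-MB-231 ended without any 1 of the 4 libraries (up to 0.146), and in HCT116 without IgG replicate 1 or either IgG+H2O2 library (up to 0.129). RPA2 ended in MDA-MB-231 without either IgG+H2O2 library (0.067 and 0.0653) and in HCT116 without IgG replicate 1 or either IgG+H2O2 library (up to 0.129). Without any single library, FEN1 in both lines, PCNA in MDA-MB-231 and RFC5 in HCT116 were still called.

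All 5 fork and chromatin genes differed between the lines in their H2O2 change, as did 17.4% of all genes by the same test. CLSPN, which encodes claspin, the adaptor of the replication checkpoint, stood at 19.6 and 20.7 TPM under IgG and 27.8 and 28.3 TPM with H2O2 in MDA-MB-231 (log2 fold change 0.46, SE 0.06, limma adjusted p = 0.00236). In HCT116 it stood at 28.3 and 29.2 TPM and 23.5 and 24.3 TPM (log2 fold change -0.26, SE 0.06, limma adjusted p = 0.00795). The groups were separate in each line, and the difference between lines was -0.72 log2 (limma adjusted p = 0.000458). CHAF1A, the large subunit of the histone chaperone CAF-1, rose in MDA-MB-231 (log2 0.35) and fell in HCT116 (log2 -0.22). CHAF1B, its partner, rose in MDA-MB-231 (log2 0.38) and did not pass in HCT116 (log2 -0.15). TIPIN, which with TIMELESS steadies the fork, fell in HCT116 from 58.8 and 56.3 TPM to 38.4 and 45.7 TPM (log2 -0.45, limma adjusted p = 0.00115), and TIMELESS fell as well (log2 -0.25). Both passed in HCT116 and not in MDA-MB-231 (log2 0.23 and 0.20). Single libraries ended the call of CHAF1A in MDA-MB-231 (IgG replicate 1, 0.0952, and IgG+H2O2 replicate 2, 0.147) and in HCT116 (IgG+H2O2 replicate 1, 0.12, and IgG replicate 2, 0.107), of CHAF1B in MDA-MB-231 (IgG+H2O2 replicate 1, 0.0627) and of CLSPN in HCT116 (IgG+H2O2 replicate 1, 0.0512).

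For nucleotide supply, RRM2, the small subunit of ribonucleotide reductase that limits the enzyme in S phase, rose in MDA-MB-231 from 116 and 127 TPM to 164 and 167 TPM (log2 fold change 0.45, SE 0.06, limma adjusted p = 0.00171). In HCT116 RRM2 stood at 422 and 408 TPM and 375 and 401 TPM, lower in both H2O2 libraries but not past the test (log2 -0.10, limma adjusted p = 0.208). TYMS, thymidylate synthase, showed the reverse order of calls. It fell in HCT116 from 384 and 360.0 TPM to 298 and 305 TPM (log2 fold change -0.30, SE 0.05, limma adjusted p = 0.000811) and stood at 242 and 247 TPM and 277 and 270.1 TPM in MDA-MB-231 (log2 0.16, not passing). RRM1, the large reductase subunit, passed in neither line (log2 0.23 and -0.09), and its difference between lines passed (-0.32 log2, limma adjusted p = 0.023). The calls of RRM2 and TYMS passed without any single library.

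Counted over both lines, 12 genes rose in MDA-MB-231 and fell in HCT116: MCM3, MCM4, MCM7, MCM10, GINS2, ORC1, PRIM1, RFC2, FEN1, RPA2, CHAF1A and CLSPN. Over all genes tested, 34 (0.244%) were called in these directions. None of the 52 was called lower in MDA-MB-231 and higher in HCT116, against 0.0788% of all genes. Another 12 rose in MDA-MB-231 and did not pass in HCT116, 15 fell in HCT116 and did not pass in MDA-MB-231, and 11 passed in neither. For these classes the joint share of all genes was not counted. Whatever the call in the other line, 1.3% of all genes were higher in MDA-MB-231 and 17.5% lower in HCT116. PCNA and DBF4 were the 2 called the same way, where 0.423% of all genes were higher in both lines and 0.867% lower in both.

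**Figure D3:**
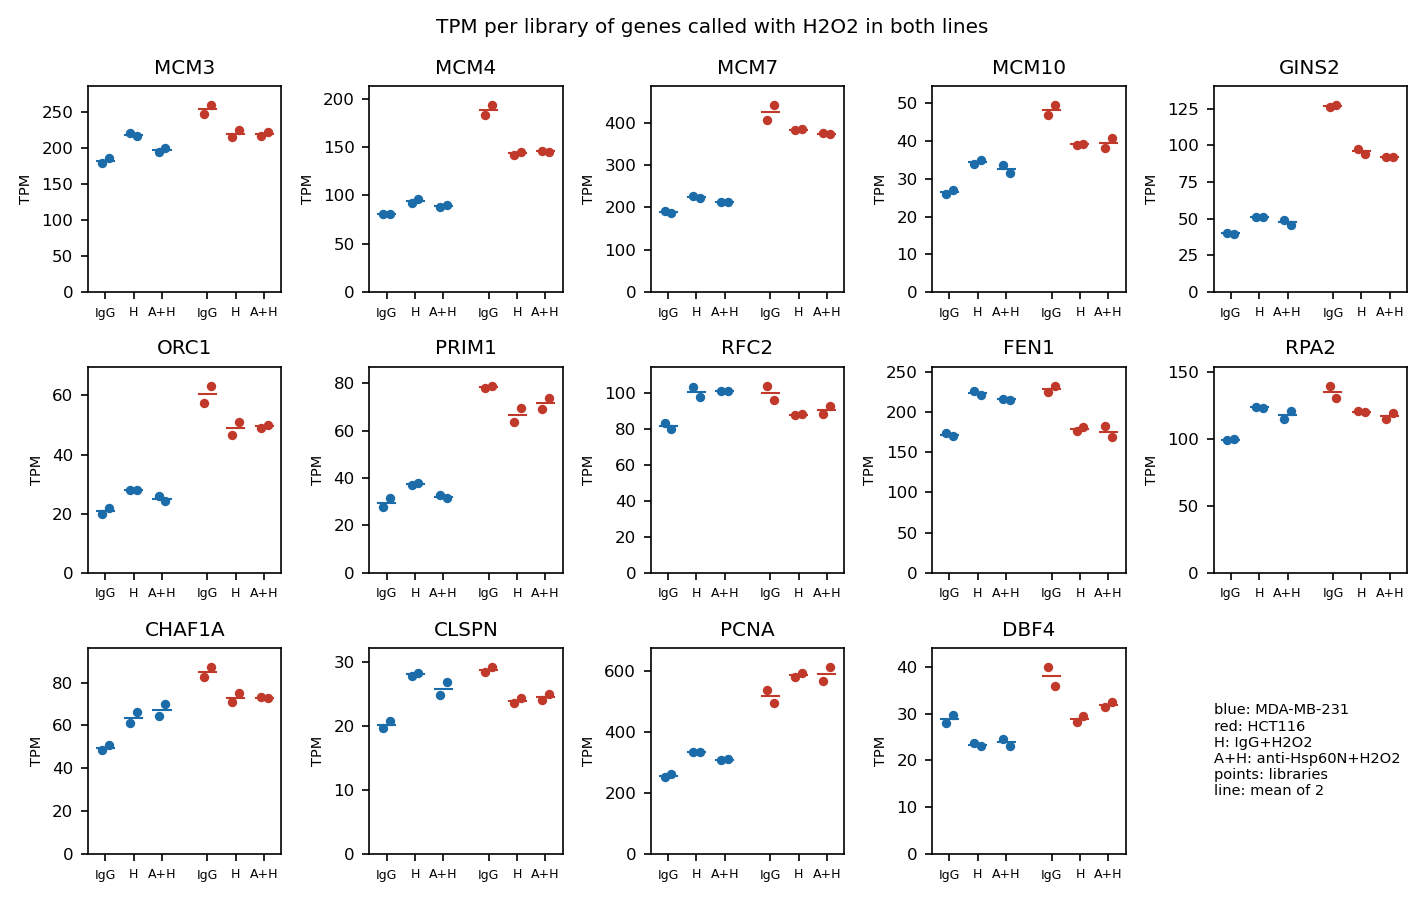
TPM (vertical axis from 0) in each library (points) with the mean of 2 (lines) for the 14 genes called with H2O2 in both lines, by treatment on the horizontal axis, MDA-MB-231 in blue and HCT116 in red. The first 12 rise in blue and fall in red with H2O2, PCNA rises in both and DBF4 falls in both.

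The promoters of the 52 genes were searched for E2F-type sites. The motifs were TTTCCCGC, TTTGGCGC and TTTCGCGC on either strand, and matches could overlap one another. RefSeq promoters (GRCh38.p14, 250 bases before to 50 after the start) matched 46 of the 52 genes by symbol. Within the 250 bases before the start, 13 of the 46 held a match (28.3%), against 2.38% of 27305 promoters. Over the whole 300 bases it was 20 of 46 (43.5%) against 2.79%. The share over the whole window was 50% among the genes that rose in MDA-MB-231 (11 of 22) and 37.5% among the other members (9 of 24). It was 30.8% among those that fell in HCT116 (8 of 26) and 60% among the other members (12 of 20). A match is a description of the letters and not evidence of binding.

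The 4 promoters below are those of the genes with the smallest p for H2O2 in MDA-MB-231 that hold a match in the 250 bases before the start. They cover the gene that rose in both lines and 3 that were called in opposite directions. Each is given 5′ to 3′ on the gene's strand from RefSeq, GRCh38.p14. Capitals mark the E2F-type matches that lie wholly within these 250 bases. PCNA lies at chr20:5126623-5126872 (minus strand), GINS2 at chr16:85688955-85689204 (minus strand), MCM3 at chr6:52284743-52284992 (minus strand) and MCM7 at chr7:100101398-100101647 (minus strand). The match of PCNA begins at position -59 from the start, that of GINS2 at -31, and those of MCM7 at -187 and -9. MCM3 has a match that begins at -174. A further MCM3 match, TTTCGCGC, begins at -4 and runs past the start, so it is not in capitals.
PCNA: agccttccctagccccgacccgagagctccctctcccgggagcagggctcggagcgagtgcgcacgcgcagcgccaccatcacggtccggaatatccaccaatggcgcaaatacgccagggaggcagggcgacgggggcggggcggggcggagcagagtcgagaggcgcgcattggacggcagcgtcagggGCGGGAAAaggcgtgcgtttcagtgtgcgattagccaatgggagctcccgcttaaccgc
GINS2: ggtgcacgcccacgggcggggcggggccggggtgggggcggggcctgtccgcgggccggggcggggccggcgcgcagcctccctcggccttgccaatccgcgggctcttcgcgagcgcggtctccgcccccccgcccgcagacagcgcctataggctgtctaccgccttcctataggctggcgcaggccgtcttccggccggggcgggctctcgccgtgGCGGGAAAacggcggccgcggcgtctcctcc
MCM3: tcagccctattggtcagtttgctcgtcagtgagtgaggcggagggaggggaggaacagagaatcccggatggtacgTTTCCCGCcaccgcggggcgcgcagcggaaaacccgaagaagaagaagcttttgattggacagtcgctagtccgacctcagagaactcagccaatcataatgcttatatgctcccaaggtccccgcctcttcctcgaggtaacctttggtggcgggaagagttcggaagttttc
MCM7: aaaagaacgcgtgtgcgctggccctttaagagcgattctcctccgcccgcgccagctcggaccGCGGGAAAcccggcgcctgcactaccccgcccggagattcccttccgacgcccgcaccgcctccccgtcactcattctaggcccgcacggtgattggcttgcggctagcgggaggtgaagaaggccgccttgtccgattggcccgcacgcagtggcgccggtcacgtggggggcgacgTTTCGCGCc

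PCNA, with the match GCGGGAAA, rose in HCT116 as well as in MDA-MB-231, while GINS2, with the same 8 letters in the same orientation, rose in MDA-MB-231 and fell in HCT116. The letters occurred in a gene of each pattern, and whether they bear on the direction of change was not tested.

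Beyond the 52, a list of 37 other genes of replication was examined, covering licensing, fork factors, nucleotide supply and the S phase regulators of the cyclin and E2F families. With H2O2 in MDA-MB-231, 7 of 37 rose and 3 fell, where 2.66% of all genes were called. In HCT116 5 rose and 7 fell, which is 32.4% of the list and near the 32.9% of all genes called there. Their median log2 fold change was 0.12 and -0.11. EXO1, a nuclease of repair and replication, had the smallest p in MDA-MB-231, at 23 and 23.2 TPM under IgG and 34.2 and 35.1 TPM with H2O2 (log2 0.57, limma adjusted p = 0.000665), and its HCT116 libraries overlapped. E2F1, the E2F factor itself, rose in both lines (log2 0.46 in MDA-MB-231 and 0.22 in HCT116), and the difference between them did not pass. Over all genes, 0.423% were called higher in both lines. In HCT116 E2F1 stood at 25.5 and 29.3 TPM under IgG and 31.6 and 32.5 TPM with H2O2. Its HCT116 call was not checked by leaving out libraries. The MDA-MB-231 call of E2F1 ended without IgG+H2O2 replicate 1 (0.0604) or IgG replicate 2 (0.0515).

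CCNE2, a cyclin of S phase entry, rose in both lines. It stood at 23.4 and 24.8 TPM and 35.9 and 38.2 TPM in MDA-MB-231 (log2 0.60, limma adjusted p = 0.00288) and at 26.2 and 27.7 TPM and 39.1 and 42.5 TPM in HCT116 (log2 0.58, limma adjusted p = 0.000489). Its paralogue CCNE1 passed in neither (log2 -0.03 and -0.10). The genes of this list that fell with the smallest p were lower in both lines, namely TOP2A, topoisomerase II alpha (log2 -0.48 and -0.43), CCNA2, cyclin A2 (log2 -0.35 and -0.51), and DBF4B, a second CDC7 activator (log2 -0.47 and -0.34). CCNA2 lost its MDA-MB-231 call without either IgG+H2O2 library (0.0793 and 0.0649) or IgG replicate 2 (0.0563).

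Against the trend of the 52 in HCT116, RRM2B and POLD4 rose there. RRM2B, the alternative small reductase subunit that p53 induces, stood at 32.5 and 31.1 TPM under IgG and 48 and 49.6 TPM with H2O2 (log2 0.60, limma adjusted p = 0.000178). In MDA-MB-231 it stood at 10.7 and 12.4 TPM and 12 and 11.3 TPM, with overlapping libraries. POLD4, the smallest polymerase delta subunit, stood at 14.5 and 17.8 TPM and 26.6 and 24.5 TPM in HCT116 (log2 0.63, limma adjusted p = 0.00149), and its MDA-MB-231 libraries overlapped. For both the difference between lines passed, at 0.59 and 0.56 log2 (limma adjusted p = 0.00405 and 0.0307). So RRM2B rose in HCT116 where RRM2 did not pass, and POLD4 rose where POLD1 and POLD2 fell.

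With anti-Hsp60N in place of IgG under H2O2, none of the 52 genes was called in either line by limma. In MDA-MB-231, 13 were lower and 0 higher at an unadjusted p under 0.05, where 13.1% of all genes reached that level in either direction, and the share called over all genes was 0.0143%. The median log2 fold change of the 52 was -0.09, against -0.02 over all genes, and 46 were negative. Both antibody libraries lay below both IgG+H2O2 libraries in 35 of the 52 and above them in 1, against 31.3% and 16.8% of all genes. In HCT116 the count at an unadjusted p under 0.05 was 0, with 5.16% of all genes at that level and 0.0215% called. The median there was 0.01, as over all genes.

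MCM6 had the smallest p of the 52 for the antibody in MDA-MB-231. It stood at 31.9 and 32.5 TPM under IgG+H2O2 and 26.4 and 27.2 TPM with the antibody, with no overlap, and did not pass (log2 -0.26, 95% interval -0.37 to -0.14, limma adjusted p = 0.201). POLA1 stood at 15.6 and 15.4 TPM and 13.2 and 12.1 TPM (log2 -0.28, 95% interval -0.44 to -0.11, limma adjusted p = 0.278). CDT1 had the highest value of the 6 members with a positive change, which also included CHAF1A, POLD1, DBF4, POLD2 and RFC2 and of which none was called. It stood at 29.9 and 31.5 TPM and 32.4 and 36.7 TPM (log2 0.16, 95% interval -0.02 to 0.34). Across the 52 the 95% intervals ran from -0.44 to 0.34 log2 in MDA-MB-231 and from -0.29 to 0.29 log2 in HCT116. In the difference of the antibody change between the lines, 0 of the 52 passed in limma, with 10 higher in HCT116 at an unadjusted p under 0.05, against 12.5% of all genes in either direction. Over all genes 0.0287% passed.

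Set against IgG, anti-Hsp60N+H2O2 gave 16 higher and 1 lower gene in MDA-MB-231 (median 0.13 log2; 3.4% of all genes were called, 1.5% higher and 1.9% lower). In HCT116 it gave 3 higher and 27 lower genes (median -0.19; 34.3% of all genes were called, 16.8% higher and 17.5% lower). These comparisons use the same IgG libraries as those of H2O2 alone, so the 2 counts are not independent. CDT1 rose in MDA-MB-231 here, from 24.1 and 25.9 TPM to 32.4 and 36.7 TPM (log2 0.45, limma adjusted p = 0.0143), where it did not pass with IgG+H2O2. MCM6 was the gene that fell in MDA-MB-231 (log2 -0.22, limma adjusted p = 0.0462). PCNA, ORC3 and CDC6 were the 3 higher genes in HCT116 (log2 0.19, 0.19 and 0.15).

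In MDA-MB-231 the 17 calls against IgG became 6 without either IgG library, 9 without anti-Hsp60N+H2O2 replicate 1 and 4 without replicate 2. The share of all genes called was then 2.16% and 1.04% without IgG replicates 1 and 2, and 2.34% and 1.18% without the antibody replicates 1 and 2. The 30 in HCT116 became 18 without either anti-Hsp60N+H2O2 library, with 23.7% and 21.2% of all genes called. CDT1 lost its call without either IgG library (0.0863 and 0.0657) or anti-Hsp60N+H2O2 replicate 2 (0.128). MCM6 lost its call without IgG replicate 2 (0.211), without any 1 of the 4 MDA-MB-231 libraries with H2O2 (up to 0.151) or of the 4 HCT116 libraries with H2O2 (up to 0.0771). ORC3 in HCT116 lost its call without any 1 of 8 libraries, namely the IgG and anti-Hsp60N+H2O2 libraries of HCT116 and the IgG and IgG+H2O2 libraries of MDA-MB-231 (up to 0.145). CDC6 did so without either IgG library or anti-Hsp60N+H2O2 replicate 2 of HCT116 (up to 0.226) or either IgG+H2O2 library of MDA-MB-231 (0.0527 and 0.0526).

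**Figure D4:**
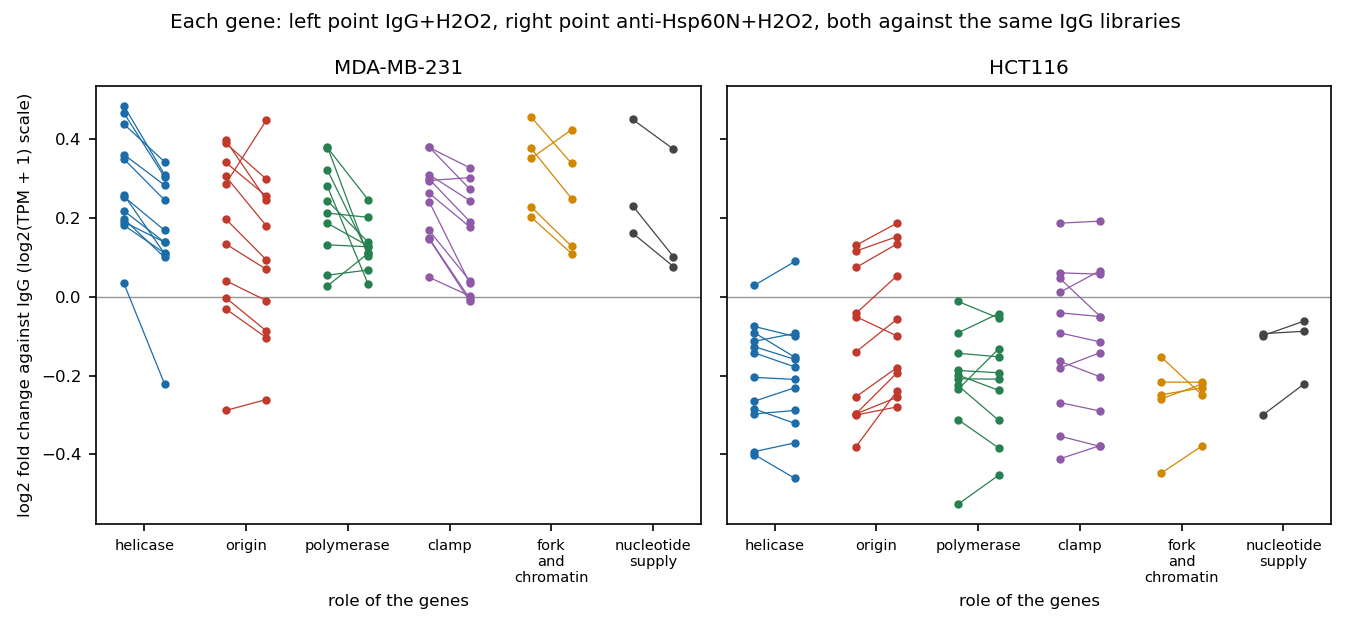
Log2 fold change against IgG (vertical) of each of the 52 genes, by role, with IgG+H2O2 at the left and anti-Hsp60N+H2O2 at the right end of each line, MDA-MB-231 in the left panel and HCT116 in the right. In MDA-MB-231 46 of the 52 lines slope down, and both ends share the same IgG libraries.

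Before any H2O2, the lines differed in the level of the machinery. Under IgG 45 of the 52 genes were higher in HCT116, 2 lower and 5 not called, where 82.8% of all genes were called, 45.5% higher and 37.3% lower. The median log2 fold change was 0.74, against 0.11 over all genes. After median-of-ratios scaling, which moved the median of all genes to -0.01, 44 were higher and 3 lower, with a median of 0.61.

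MCM5 had the highest fold change of the 52 between the lines, at 50.3 and 52.5 TPM in MDA-MB-231 and 209 and 231 TPM in HCT116 (log2 fold change 2.07, SE 0.07, limma adjusted p = 2.44e-10). The loading factor CDT1 followed at 24.1 and 25.9 TPM and 106 and 103 TPM (log2 2.02), with MCM2 at log2 1.92, MCM6 at 1.91, RRM2 at 1.77 and GINS2 at 1.65. Within the ring, levels in HCT116 under IgG ran from 119 and 123 TPM for MCM6 to 407 and 443 TPM for MCM7. In MDA-MB-231 they ran from 30.2 and 32.7 TPM for MCM6 to 191 and 186 TPM for MCM7. So MCM6 was the lowest and MCM7 the highest of the 6 ring subunits in both lines. In MDA-MB-231 MCM3 stood close to MCM7, at 179 and 186 TPM, and no test between genes was run. POLD3 and RPA3 were the genes called lower in HCT116 (log2 -0.53 and -0.23), and GINS4, ORC4, CDC7, POLE3 and RRM1 were not called.

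**Figure D5:**
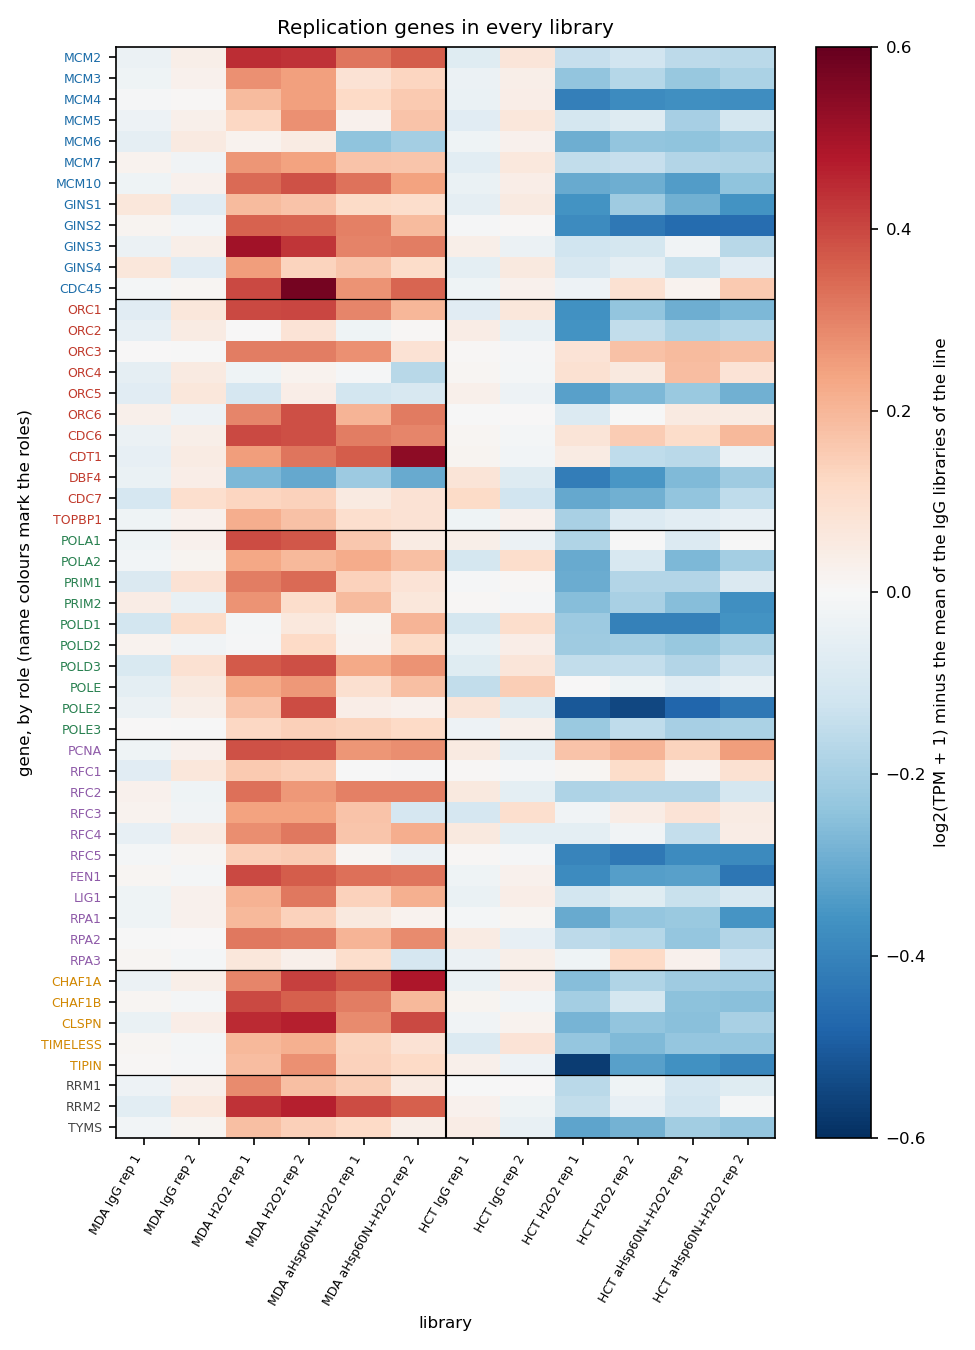
Log2(TPM + 1) minus the mean of the 2 IgG libraries of the same line, for the 52 genes (rows, grouped by role) in the 12 libraries (columns), red above and blue below that mean. MDA-MB-231 libraries with H2O2 are mostly red and HCT116 libraries with H2O2 mostly blue, with PCNA, CDC6 and ORC3 red and DBF4 blue in both lines.

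Some members share sequence with other genes. In GENCODE 29 an exon of 9 of the 52 overlaps an exon of a gene on the other strand, among them TYMS with ENOSF1, FEN1 with TMEM258 and MCM7 with AP4M1. No source states the strand setting of the libraries, so reads from such overlaps cannot be told apart. PCNA, RRM2, RPA2, FEN1 and others have named pseudogene copies, and how reads shared with a copy were divided is uncertain.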

How the data were processed

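Expression was taken from 1 table that the authors deposited, in TPM per gene to 2 decimals. Per the submitters' processing notes, bcl2fastq 2.20, STAR, RSEM and hg19 were used, without role or order; no source names the annotation. Columns were matched to libraries by description, with 0 unmatched. Depth is unknown.

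Values were taken as log2(TPM + 1), which understates changes of low genes. Genes with at least 1 TPM in at least 2 of 12 libraries were kept (13956 of 23686). The fit used limma 3.58.1 in R 4.3.3, with 6 group means and a trended variance, without a replicate block, with 6 residual and 4.63 prior degrees of freedom; tests were two-sided, Benjamini-Hochberg adjusted over all genes kept, in 9 comparisons. The script was tested on simulated data. Figures used matplotlib 3.10.9.

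Members and lists were chosen with earlier results of these data known. Full statistics went to up to 2 called genes of smallest p per role and H2O2 or antibody comparison, those called in opposite directions, and up to 5 each for the difference between lines and the lines under IgG; other values, including all same-direction pairs and comparisons of the antibody group with IgG, were chosen after they were seen. Alternatives were other pseudocounts, filters, scalings and variance models, each line alone, a replicate block and leaving out each library.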

Additional observations from a re-analysis of the deposited data

Results flagged for a closer look

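In 38 of the 52 genes the change with H2O2 differed between HCT116 and MDA-MB-231, by the interaction term of limma at an adjusted p under 0.05. The values are log2 changes in HCT116 minus those in MDA-MB-231, and all 38 were negative. Each is the difference of 2 changes over 2 libraries a group. Over all genes tested, 17.4% were called by the same term, 9.72% lower and 7.65% higher.

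Of the helicase genes, the difference was -0.57 for MCM2, -0.46 for MCM3, -0.61 for MCM4, -0.30 for MCM6, -0.40 for MCM7, -0.66 for MCM10, -0.47 for GINS1, -0.75 for GINS2, -0.58 for GINS3 and -0.46 for CDC45. For the origin genes it was -0.70 for ORC1, -0.38 for ORC6, -0.27 for CDC6, -0.43 for CDC7 and -0.34 for TOPBP1. The polymerase genes had -0.47 for POLA1, -0.41 for POLA2, -0.56 for PRIM1, -0.41 for PRIM2, -0.26 for POLD2, -0.52 for POLD3, -0.81 for POLE2 and -0.32 for POLE3. Among the clamp genes it came to -0.48 for RFC2, -0.34 for RFC4, -0.56 for RFC5, -0.73 for FEN1, -0.35 for LIG1, -0.44 for RPA1 and -0.47 for RPA2. In the fork and chromatin group it was -0.57 for CHAF1A, -0.53 for CHAF1B, -0.72 for CLSPN, -0.45 for TIMELESS and -0.68 for TIPIN. Nucleotide supply genes stood at -0.32 for RRM1, -0.55 for RRM2 and -0.46 for TYMS. 

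The adjusted p ran from 7.03e-05 for FEN1 to 0.0367 for POLD2. No group had enough libraries for a test of a single library against the others.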

How the results depend on the processing

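Of 70 single-gene results, 39 kept their direction and call in every alternative and 31 lost the call in at least 1; none changed direction. Leaving out 1 library gave 9 to 26 members called for H2O2 in MDA-MB-231, 15 to 30 in HCT116, 4 to 18 and 18 to 30 for anti-Hsp60N+H2O2 against IgG, 28 to 38 for the difference between lines, 46 to 48 for the lines under IgG, and 0 for each antibody comparison. With the MDA-MB-231 libraries fitted alone, 21 members rather than 26 were called for H2O2 in that line, with 2.68% of all genes called. Without the variance trend, 18 were called for H2O2 in MDA-MB-231, with 2.09% of all genes called. In the same setting, 10 members rather than 17 were called for anti-Hsp60N+H2O2 against IgG in MDA-MB-231, with 2.84% of all genes called. The cause was not tested. That setting also ended 10 of the 70 single-gene calls. The replicate block gave 22, 30, 14, 30, 39 and 47 calls in these 6 comparisons, and 0 in the antibody comparisons. The share of all genes called in the 6 was then 1.96%, 31.5%, 2.69%, 32.9%, 14.9% and 82.6%. It ended the named calls of POLA1 (0.0512), DBF4 (0.098) and MCM6 (0.0547) in MDA-MB-231 and of ORC3 (0.0546) in HCT116. The replicates share only a number: same-numbered libraries of a line correlated at -0.13 to 0.16 in their deviations. Quantile normalization ended POLA1 in MDA-MB-231 (0.053) and MCM7, RFC2 and RPA2 in HCT116 (0.152, 0.14 and 0.155). Only 2 libraries a group limit the precision, and TPM show shares of a library, not absolute amounts.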
